A study of Mus musculus with 15 samples.

Results

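Endothelial genes and leukocyte adhesion molecules were followed in ear RNA of wild-type and *Socs3* cKO mice. The 10 genes were fixed by name and matched exactly to the gene symbols of the files, which list 21110 genes, and all 10 were found. They comprise 5 genes used as stable markers of endothelium (*Pecam1*, *Cdh5*, *Kdr*, *Flt1* and *Tek*), the growth factor gene *Vegfa*, and 4 inducible adhesion molecules (*Sele*, *Selp*, *Icam1* and *Vcam1*). The question was whether the inducible adhesion molecules moved with the stable markers or apart from them.

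The 15 libraries each came from 1 mouse of the C57BL/6 strain. At 2 weeks after birth the groups held 4 wild-type mice and 4 *Socs3* cKO mice, and at 10 weeks they held 3 and 4. The deletion in *Socs3* cKO is specific to cells that express keratin 5, which marks basal keratinocytes, so endothelial cells and leukocytes are not its intended target. RNA was extracted from ear specimens, while another label names keratinocytes as the source. Summed FPKM of 5 fibroblast genes was between 3166 and 9862 in every library, and 29 further endothelial genes summed to between 225.3 and 401.2, so the values below are those of mixed tissue. FPKM scales the fragments of a gene to its length and to the mapped reads of the library, so levels can be compared between genes.

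Endothelial cells line blood and lymphatic vessels and decide where leukocytes leave the blood. *Pecam1* and *Cdh5* (VE-cadherin) hold neighbouring endothelial cells together at their junctions, *Kdr* and *Flt1* are receptors for VEGF-A, and *Tek* is the receptor for angiopoietins. *Vegfa* encodes VEGF-A, the main growth factor for vessels, which in skin is made by keratinocytes among other cells. E-selectin (*Sele*) and P-selectin (*Selp*) catch passing leukocytes and let them roll, and ICAM-1 and VCAM-1 then bind leukocyte integrins and stop them. Inflammatory cytokines such as TNF and IL-1 switch on *Sele*, *Icam1* and *Vcam1* through NF-kB. ICAM-1 and VCAM-1 are also made by other cells of inflamed skin, and P-selectin and PECAM-1 are also made in platelets.

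Some features of the libraries touch every result. Library depths are not stated, and an estimate from small values put them at 11400000 to 16400000 mapped reads. Library numbers in the labels do not mix between the 4 groups, and wild-type replicate 1 of 2 weeks is numbered apart from its group, so library batch and condition cannot be told apart. The wild type at 10 weeks had 1414 to 3176 genes listed at exactly 0, against 4044 to 4423 in the other groups, and its values leaned toward short genes, since the deviation of a gene from its mean over the 15 mice had a Spearman correlation with gene length of -0.44 to -0.162 across 13368 genes. *Socs3* cKO replicate 1 at 2 weeks stood apart, where this deviation had a correlation with GC content of -0.63 against -0.248 to -0.178 in the other 3 mice of its group, and genotype differences at 2 weeks are therefore also given without it. Replicate 2 of that group stood apart by gene length, with a correlation of 0.41 against -0.242 to -0.078 in the other 3 mice. The targeted gene *Socs3* was at 9.71, 10.2, 10.3 and 10.3 FPKM in wild-type mice and 1.25, 9.32, 12.6 and 3.51 FPKM in *Socs3* cKO at 2 weeks. At 10 weeks *Socs3* was at 2.76, 4.81 and 2.02 FPKM in wild-type mice and 36.5, 29.8, 47.7 and 32.4 FPKM in the libraries labelled *Socs3* cKO, which goes against a loss of the gene. A value for the whole gene in mixed tissue does not separate the deleted part of *Socs3* in keratinocytes from transcripts of other cells, so it does not check the deletion, and genotypes below are those of the labels.

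Differences were computed on log2(FPKM + 0.1) and are given as log2(FC), *Socs3* cKO minus wild type. A gene entered the limma test (2-sided, Benjamini-Hochberg adjustment over all genes tested) where 3 or more of the mice compared reached 1 FPKM. It was called, and is said to have risen or fallen, when the adjusted p was below 0.01 and |log2(FC)| was at least 1. An exact permutation test of single genes cannot go below p = 0.0286 for 4 mice against 4 or below p = 0.0571 for 3 against 4. Where groups are said not to overlap, the share of all genes without overlap was not computed, so it is a description only.

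At 10 weeks all 4 adhesion molecules rose in the mice labelled *Socs3* cKO, led by *Icam1*, and 3 of the 4 stable endothelial genes tested rose as well. Differences between these genes in the size of the rise were not tested, and with a pseudocount of 1 the log2(FC) of *Kdr* (1.38) was above that of *Sele* (1.32) and *Selp* (1.30). Of the 10 genes 9 were tested and 7 were called, all higher. Among all 13105 genes tested 14.9% were called, 12.5% higher and 2.43% lower, and the median log2(FC) was 0.31, which median-of-ratios scaling took to 0.06. The median log2(FC) was 2.35 over the 4 adhesion molecules and 1.30 over the 4 stable endothelial genes tested. Both medians are a description only, since *Flt1* did not pass the expression filter and other genes passed it through *Socs3* cKO mice. *Sele* and *Selp* passed through these mice alone, and *Kdr* through them and 1 wild-type mouse. In bulk tissue a change in the number of cells of a type and a change in RNA per cell cannot be told apart.

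*Icam1* (chromosome 9 of mm9, 20820404 to 20833241, plus strand) was the member with the largest difference. Its FPKM was 3.17, 8.66 and 4.47 in wild-type mice and 68.0, 68.3, 114 and 54.1 in *Socs3* cKO at 10 weeks. The lowest *Socs3* cKO mouse was far above the highest wild-type mouse. limma gave a log2(FC) of 3.85 (SE 0.34, adjusted p = 0.00012), which is 14.4-fold, and 3.53 to 4.24 when any 1 mouse was left out. *Icam1* was also called in all 10 alternative analyses, with a log2(FC) of at least 3.53.

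*Vcam1* (chromosome 3, 115812938 to 115832606, minus strand), the ligand of the integrin VLA-4, was the next most abundant adhesion molecule. At 10 weeks it was at 2.32, 3.10 and 2.58 FPKM in wild-type mice and 17.2, 12.9, 10.3 and 16.1 FPKM in *Socs3* cKO. Again the groups did not overlap. The log2(FC) was 2.34 (SE 0.23, adjusted p = 0.000193), or 5.08-fold, and *Vcam1* stayed called in all 10 alternative analyses and without any 1 mouse.

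The selectins were low in every group. *Sele* (chromosome 1, 165978365 to 165987808, plus strand) was at 0.224, 0.627 and 0.544 FPKM in wild-type mice and 2.75, 2.02, 3.68 and 2.24 FPKM in *Socs3* cKO at 10 weeks. *Selp* lies on the same chromosome (166045395 to 166080157, plus strand) and was at 0.599, 0.200 and 0.489 FPKM in wild-type mice and 3.01, 2.17, 3.90 and 1.403 FPKM in *Socs3* cKO. For both selectins the 2 genotypes did not overlap. By the estimated depth, *Sele* rests on about 9 to 23 reads in a wild-type mouse and 92 to 156 in a *Socs3* cKO mouse, and *Selp* on about 11 to 34 and 98 to 252 reads. The log2(FC) was 2.34 for *Sele* (SE 0.35, adjusted p = 0.00153) and 2.36 for *Selp* (SE 0.42, adjusted p = 0.00294). Both passed the expression filter through the *Socs3* cKO mice alone, since none of the 3 wild-type mice reached 1 FPKM. Without wild-type replicate 3 *Selp* had a log2(FC) of 2.48 and was no longer called (adjusted p = 0.0124).

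**Figure D1:**
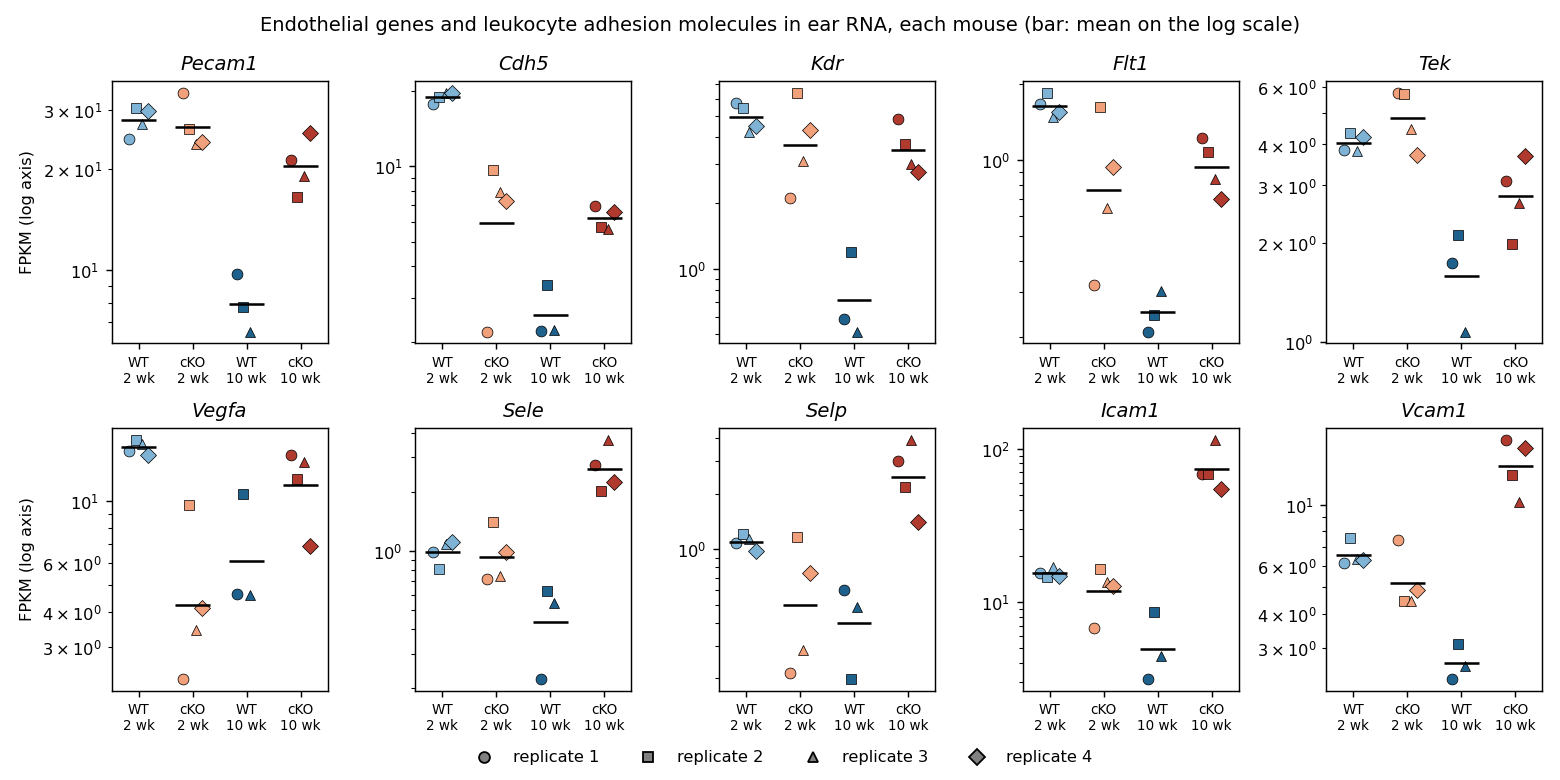
FPKM of the 10 genes in each mouse (vertical axis, logarithmic), by genotype and age, with replicates as marker shapes and the mean on the log scale as a bar. Group means of *Icam1*, *Vcam1*, *Sele* and *Selp* were highest in *Socs3* cKO at 10 weeks, while those of *Pecam1*, *Cdh5*, *Kdr*, *Flt1* and *Tek* were highest at 2 weeks.

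Cells that also make these proteins were looked at by their markers, beside 12.5% of all genes called higher and 2.43% lower at 10 weeks. Of 7 macrophage genes, 5 rose and none fell at 10 weeks (*Cd14*, *Emr1* and *Cd68* and, named after their values were seen, *Csf1r* and *Mrc1*), with a summed FPKM of 266.9 to 439.1 among wild-type mice and 629 to 1082 among *Socs3* cKO mice, and none of the list was at 0 in all mice of a group; their part in *Icam1* and *Vcam1* was not tested. Of 5 platelet genes tested none rose and *Gp1bb*, a subunit of the platelet receptor for von Willebrand factor, fell (log2(FC) -2.23, SE 0.40, adjusted p = 0.00316). The 8 listed platelet genes summed to 153.6 to 379.5 FPKM in wild-type mice and 195.1 to 338.7 FPKM in *Socs3* cKO. Most of that was *Pf4*, at 138.6 to 342.2 FPKM in wild-type mice and 185.1 to 329.6 FPKM in *Socs3* cKO. The sum therefore says little about the other platelet genes, and *Gp9* was at 0 in all 4 *Socs3* cKO mice. Of 5 fibroblast genes *Pdgfra* rose (1.34, SE 0.19) and of 5 keratinocyte genes none was called at 10 weeks. The exons of *Icam1* and *Selp* overlap other genes on the opposite strand that are not listed in the files, and the library kit is not stated to keep the strand.

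The sequence upstream of the adhesion genes is shown as a description, and a part of it in their values was not tested. RefSeq promoters (GRCm38.p6, a later build than that of the expression values) were at hand for *Sele*, *Selp*, *Icam1*, *Kdr*, *Flt1*, *Tek* and *Vegfa*, and the table used here has no entry for *Pecam1*, *Cdh5* and *Vcam1*. Windows from 250 bases before to 50 bases after the start were searched on both strands for TGANTCA (AP-1), TTCNNNGAA (STAT), CAGGAA (ETS), ACGTG (HIF) and GGGRNNYYCC (the NF-kB consensus). TATAAA was searched for on the given strand. R stands for A or G, Y for C or T and N for any base. The last 150 bases before the start follow, 5′ to 3′, with matches in capitals and with *Kdr*, an endothelial receptor gene, for comparison.
*Sele*, chr1:164048084-164048233, plus strand: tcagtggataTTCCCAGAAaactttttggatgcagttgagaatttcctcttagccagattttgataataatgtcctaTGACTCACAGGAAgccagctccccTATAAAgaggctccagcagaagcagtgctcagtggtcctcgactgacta
*Selp*, chr1:164115114-164115263, plus strand: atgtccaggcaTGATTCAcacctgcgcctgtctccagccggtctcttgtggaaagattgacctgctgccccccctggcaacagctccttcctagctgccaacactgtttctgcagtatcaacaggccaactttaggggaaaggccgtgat
*Icam1*, chr9:21015790-21015939, plus strand: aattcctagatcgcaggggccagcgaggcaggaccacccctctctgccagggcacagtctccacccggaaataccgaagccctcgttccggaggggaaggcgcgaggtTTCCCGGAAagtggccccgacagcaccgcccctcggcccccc
*Kdr*, chr5:75978456-75978605, minus strand: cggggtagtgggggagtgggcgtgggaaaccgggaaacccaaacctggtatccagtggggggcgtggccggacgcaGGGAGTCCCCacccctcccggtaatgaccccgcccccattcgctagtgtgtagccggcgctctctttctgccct

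In *Sele* the STAT letters began at position -140 from the start, the AP-1 letters at -73, directly followed by the ETS letters at -66, and TATAAA at -49. *Selp* held the AP-1 letters at -139, and *Icam1* the STAT letters at -42 and TATAAA at 13, past the start and outside the stretch shown. The NF-kB consensus was matched in *Kdr*, at -74, in *Flt1* and in *Vegfa*, and not in the windows of *Sele*, *Selp* or *Icam1*. Over 32851 mouse promoters of the same length the share with a match was 8.5% for the NF-kB consensus, 7.8% for AP-1, 8.3% for STAT, 30.6% for ETS, 19.6% for HIF and 8.3% for TATAAA. A match says only that the letters are there, and a missing match says nothing about a factor.

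Among the stable endothelial genes *Kdr* had the largest difference at 10 weeks. *Kdr* (chromosome 5, 76328852 to 76374483, minus strand) was at 0.589, 1.19 and 0.514 FPKM in wild-type mice and 4.87, 3.71, 3.02 and 2.78 FPKM in *Socs3* cKO. The groups did not overlap, and the log2(FC) was 2.14 (SE 0.33, adjusted p = 0.00158), or 4.42-fold. Only 1 of the 3 wild-type mice reached 1 FPKM, so *Kdr* met the expression filter through the *Socs3* cKO mice. *Kdr* was called in all 10 alternative analyses, including the one without an expression filter, and its log2(FC) there ranged from 1.38 to 2.29.

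The junction genes had smaller log2(FC) values. *Pecam1* (chromosome 11, 106515531 to 106611942, minus strand) was at 9.76, 7.80 and 6.58 FPKM in wild-type mice and 21.4, 16.5, 19.2 and 25.7 FPKM in *Socs3* cKO at 10 weeks. *Cdh5* (chromosome 8, 106625525 to 106668402, plus strand) was at 2.21, 3.37 and 2.22 FPKM in wild-type mice and 6.96, 5.73, 5.63 and 6.59 FPKM in *Socs3* cKO. Neither gene had overlapping groups. The log2(FC) was 1.35 for *Pecam1* (SE 0.21, adjusted p = 0.00165) and 1.25 for *Cdh5* (SE 0.22, adjusted p = 0.003). These calls were the less stable ones: *Pecam1* was called in 8 of 10 alternative analyses and fell to a log2(FC) of 0.84 after removal of each library's trend with gene length and GC content (adjusted p = 0.0194), and *Cdh5* was called in 5 of 10, with log2(FC) values down to 0.81. *Cdh5* was also lost without wild-type replicate 1, wild-type replicate 3 or *Socs3* cKO replicate 1 (adjusted p from 0.0123 to 0.0154).

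The remaining genes of vessel growth gave weaker or untested differences. *Flt1* (chromosome 5, 148373180 to 148537587, minus strand), a decoy receptor that binds VEGF-A, was at 0.210, 0.244 and 0.303 FPKM in wild-type mice and 1.23, 1.08, 0.844 and 0.704 FPKM in *Socs3* cKO. Its groups did not overlap, but only 2 of the 7 mice reached 1 FPKM, so *Flt1* was not tested; without an expression filter its log2(FC) was 1.57 and it was called. *Tek* (chromosome 4, 94405980 to 94541667, plus strand) was at 1.75, 2.11 and 1.08 FPKM in wild-type mice and 3.11, 1.98, 2.66 and 3.69 FPKM in *Socs3* cKO, and these groups overlapped. The log2(FC) of *Tek* was 0.78 (SE 0.30, adjusted p = 0.0689, 95% confidence interval 0.10 to 1.46). *Vegfa* (chromosome 17, 46153942 to 46169326, minus strand) was at 4.65, 10.6 and 4.62 FPKM in wild-type mice and 14.6, 11.96, 13.8 and 6.92 FPKM in *Socs3* cKO. Wild-type replicate 2 overlapped the *Socs3* cKO mice, and the log2(FC) of 0.88 (SE 0.35, adjusted p = 0.0708, 95% confidence interval 0.10 to 1.66) was not called.

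**Figure D2:**
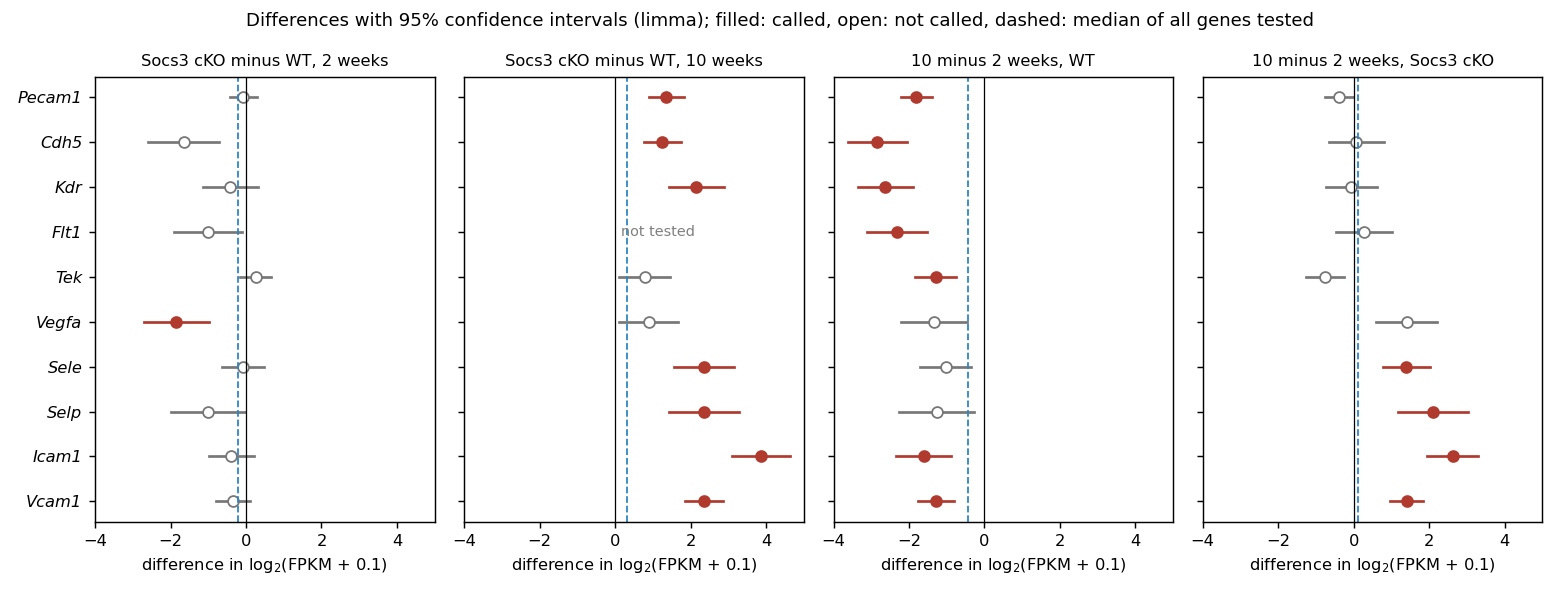
Differences in log2(FPKM + 0.1) of the 10 genes (horizontal axis) with 95% confidence intervals from limma, in 4 comparisons; filled points are called, open points are not, and the dashed line is the median of all genes tested. The adhesion molecules were called at 10 weeks between genotypes and with age in *Socs3* cKO, where no stable endothelial gene was called.

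At 2 weeks the picture was different: *Vegfa* was the only one of the 10 genes called, and it was lower in *Socs3* cKO. In this comparison 14.4% of 13524 genes tested were called, 7.24% higher and 7.19% lower, and the median log2(FC) was -0.21. *Vegfa* was at 15.1, 16.5, 16.0 and 14.5 FPKM in wild-type mice and 2.32, 9.64, 3.47 and 4.13 FPKM in *Socs3* cKO. The genotypes did not overlap, and *Vegfa* fell by 1.85 on the log2 scale (SE 0.38, adjusted p = 0.00688, exact permutation p = 0.0286). Without *Socs3* cKO replicate 1 the log2(FC) was -1.57 and still called (adjusted p = 0.00248). The call was lost without any 1 of the 4 wild-type mice and without *Socs3* cKO replicate 3 or 4, where the log2(FC) stayed between -1.88 and -1.75 and the adjusted p was 0.02 to 0.0243.

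*Cdh5* showed a separation of similar size at 2 weeks that did not pass the test. It was at 17.7, 18.9, 19.6 and 19.5 FPKM in wild-type mice and 2.20, 9.66, 7.92 and 7.26 FPKM in *Socs3* cKO. Every *Socs3* cKO mouse lay below every wild-type mouse (exact permutation p = 0.0286, n = 4 and 4), and the log2(FC) was -1.65 (SE 0.41, adjusted p = 0.0141). *Cdh5* passed in 5 of 10 alternative analyses, and without *Socs3* cKO replicate 1, its lowest mouse, its log2(FC) was -1.19 with an adjusted p of 7.2e-05. Without *Socs3* cKO replicate 2 the genes *Cdh5*, *Flt1* and *Vegfa* were all called, each lower.

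Markers of other tissues also differed at 2 weeks, beside *Vegfa* and *Cdh5*, where 7.24% of all genes rose and 7.19% fell. The fibroblast collagen genes *Col1a1* and *Col1a2* fell by 3.06 (SE 0.34) and 1.72 (SE 0.24) and *Dcn* rose (1.24, SE 0.28). Of 5 skeletal muscle genes *Myh1*, *Tnnt3* and *Ckm* rose, with log2(FC) values of 2.19, 2.05 and 1.64, and all 4 red cell genes rose, with a median of 3.14. Of 7 lymphatic genes tested *Mmrn1* (2.61) and *Ccl21a* (1.66) rose and *Foxc2* fell by 2.62. The summed FPKM of the muscle genes was 443.8 to 669.8 among wild-type and 1054 to 1595 among *Socs3* cKO mice, and that of the red cell genes 457.6 to 531.1 and 2704 to 7432. The part of these tissues in the differences of *Vegfa* and *Cdh5* was not tested.

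*Pecam1*, the other junction gene, overlapped between genotypes at 2 weeks. It was at 24.7, 30.5, 27.2 and 29.9 FPKM in wild-type mice and 33.8, 26.4, 23.7 and 24.1 FPKM in *Socs3* cKO, with a log2(FC) of -0.07 (SE 0.15, 95% confidence interval -0.42 to 0.28). Thus the 2 junction genes gave unlike values in the same mice: *Cdh5* was below the wild type in 4 of 4 *Socs3* cKO mice and *Pecam1* was the highest of all 15 mice in *Socs3* cKO replicate 1. The receptors *Kdr*, *Flt1* and *Tek* had log2(FC) values of -0.42 (SE 0.32), -1.01 (SE 0.39) and 0.25 (SE 0.18), with adjusted p of 0.288, 0.0622 and 0.264. Without *Socs3* cKO replicate 1 the log2(FC) was -0.18 for *Pecam1*, -0.16 for *Kdr*, -0.66 for *Flt1* and 0.17 for *Tek*, none called. The receptors' groups overlapped, with *Kdr* at 4.21 to 5.72 FPKM in wild-type mice and 2.11 to 6.38 FPKM in *Socs3* cKO.

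None of the 4 adhesion molecules was called at 2 weeks, and all 4 had overlapping groups, *Vcam1* through *Socs3* cKO replicate 1 alone. *Icam1* was at 15.4, 14.5, 16.9 and 14.7 FPKM in wild-type mice and 6.78, 16.4, 13.6 and 12.7 FPKM in *Socs3* cKO, a log2(FC) of -0.38 (SE 0.26, 95% confidence interval -0.97 to 0.20). *Vcam1* was at 6.15, 7.57, 6.32 and 6.29 FPKM in wild-type mice and 7.41, 4.46, 4.44 and 4.87 FPKM in *Socs3* cKO, a log2(FC) of -0.34 (SE 0.20, interval -0.79 to 0.12). The selectins were again near 1 FPKM, with *Sele* at 0.807 to 1.11 FPKM among wild-type and 0.718 to 1.41 FPKM among *Socs3* cKO mice (log2(FC) -0.08, SE 0.24). *Selp* was at 0.974 to 1.21 FPKM and 0.213 to 1.17 FPKM, a log2(FC) of -0.999 (SE 0.43, adjusted p = 0.0826). Without *Socs3* cKO replicate 1 the log2(FC) of *Vcam1* was -0.51 with an adjusted p of 0.00589, short of the fold needed for a call, and the groups did not overlap. The other log2(FC) values without it were -0.12 for *Icam1*, 0.03 for *Sele* and -0.69 for *Selp*, none called. For *Pecam1*, *Kdr*, *Sele*, *Icam1* and *Vcam1* the sign of this difference turned under another scaling or after removal of the length and GC trends, so no direction is given for them.

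Whether the genotype difference itself changed with age was tested in one fit of all 4 groups. The signed difference, *Socs3* cKO minus wild type, was called as higher at 10 weeks for 9 of the 10 genes, all but *Tek*. In this test 25.6% of 13937 genes were called (adjusted p below 0.01), 18.5% in this direction and 7.05% in the other. The median over all genes was 0.55 on the log2 scale. *Icam1* led with 4.23 (SE 0.46, adjusted p = 3.3e-05), followed by *Selp* with 3.36 (SE 0.64) and *Cdh5* with 2.90 (SE 0.50). *Vegfa* had 2.73, *Vcam1* 2.68, *Flt1* 2.58, *Kdr* 2.56 and *Sele* 2.42. In *Cdh5* and *Vegfa* the interaction joined a lower level in *Socs3* cKO at 2 weeks with a higher mean at 10 weeks. *Pecam1*, with 1.42 (SE 0.26, adjusted p = 0.00109), was lost under median-of-ratios scaling (0.95, adjusted p = 0.0236) and after removal of the length and GC trends (0.51, adjusted p = 0.263). *Tek* had 0.52 (SE 0.35, adjusted p = 0.221), and its sign turned between analyses (-0.26 to 0.55).

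Within *Socs3* cKO the stable and the inducible genes gave different values with age. Comparing 10 with 2 weeks in *Socs3* cKO, all 4 adhesion molecules were called, all higher, while none of the 5 stable endothelial genes was called; 3.54% of 13937 genes were called, 2.01% higher and 1.53% lower, and the median was 0.11. *Icam1* had a log2(FC) of 2.63 (SE 0.32, adjusted p = 0.000128), *Selp* 2.09 (SE 0.43, adjusted p = 0.00722), *Vcam1* 1.403 (SE 0.21, adjusted p = 0.000616) and *Sele* 1.39 (SE 0.29, adjusted p = 0.00798). Every mouse of 10 weeks lay above every mouse of 2 weeks for each of these genes (exact permutation p = 0.0286 for each, n = 4 and 4). The selectin calls were fragile, since *Sele* was kept in 4 of 10 alternative analyses and *Selp* in 6 of 10. Without *Socs3* cKO replicate 1 of 2 weeks *Icam1* and *Vcam1* stayed called and *Sele* (1.28, adjusted p = 0.0155) and *Selp* (1.78, adjusted p = 0.014) did not.

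The stable genes had log2(FC) values on both sides of 0 in the same comparison. *Pecam1* was at -0.39 (95% confidence interval -0.76 to -0.01), *Cdh5* at 0.06 (-0.66 to 0.79), *Kdr* at -0.06 (-0.75 to 0.62) and *Flt1* at 0.27 (-0.46 to 1.002). *Tek*, the angiopoietin receptor, was at -0.77 (-1.27 to -0.27, adjusted p = 0.0516), and all 4 mice of 10 weeks were below those of 2 weeks. *Vegfa* was at 1.399 (SE 0.38, adjusted p = 0.0309) and was not called.

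In the wild type all 10 genes were lower at 10 weeks than at 2 weeks, unlike the adhesion molecules in *Socs3* cKO and like *Pecam1*, *Kdr* and *Tek* there in sign. The 2 ages did not overlap for any of them, which was not counted over all genes. Of the 10 genes 7 were called lower. In this comparison 25.5% of 13937 genes were called, 19.4% lower and 6.18% higher, and the median log2(FC) was -0.44. *Cdh5* fell by 2.84 on the log2 scale (SE 0.37), *Kdr* by 2.62 (SE 0.35), *Flt1* by 2.31 (SE 0.37), *Pecam1* by 1.80 (SE 0.19) and *Tek* by 1.30 (SE 0.25). Of the adhesion molecules, *Icam1* fell by 1.61 (SE 0.34) and *Vcam1* by 1.28 (SE 0.22), and *Sele* (-1.03, adjusted p = 0.0152) and *Selp* (-1.27, adjusted p = 0.0353) did not pass. *Vegfa* was at -1.33 (SE 0.41, adjusted p = 0.0154). The genotype difference at 10 weeks uses these same wild-type mice, so the 2 comparisons share them, and the order of the 4 groups bears on how each gene is read. In that order the 4 adhesion molecules had their highest mean in *Socs3* cKO at 10 weeks, and *Pecam1*, *Cdh5*, *Kdr* and *Flt1* had theirs in wild-type mice at 2 weeks. *Tek* and *Vcam1* were not called with age in wild-type mice under median-of-ratios scaling, quantile normalization or removal of the length and GC trends. *Icam1* was called lower with age in wild-type mice except without replicate 1 or 3 of 10 weeks.

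Adhesion molecules were then set against the mean log2(FPKM + 0.1) of the 5 stable endothelial genes in the same mouse, as a description. Relative to that mean *Icam1* stood at 1.67 ± 0.56 in wild-type mice (SD, n = 3) and 4.10 ± 0.55 in *Socs3* cKO (SD, n = 4) at 10 weeks, and the groups did not overlap. *Vcam1* stood at 0.79 ± 0.18 and 1.71 ± 0.21, also without overlap. *Sele* went from -1.58 ± 0.61 to -0.66 ± 0.41, where the highest wild-type mouse at -1.07 lay just below the lowest *Socs3* cKO mouse at -0.88. For *Selp* the values were -1.68 ± 0.88 and -0.74 ± 0.64 and the groups overlapped. Other pseudocounts or quantile normalization moved the 10-week difference in relative level. It was 0.35 to 1.13 for *Sele*, 0.33 to 1.13 for *Selp*, 2.20 to 2.65 for *Icam1* and 0.68 to 1.06 for *Vcam1*. The reference includes *Flt1*, at 0.210 to 0.303 FPKM in these wild-type mice. Between 2 and 10 weeks in *Socs3* cKO the relative level differed by 2.80 for *Icam1*, 2.27 for *Selp*, 1.58 for *Vcam1* and 1.57 for *Sele*, each without overlap. Wild-type means were also higher at 10 than at 2 weeks, from -2.72 to -1.58 for *Sele* and from -0.11 to 0.79 for *Vcam1* without overlap, and from -2.59 to -1.68 for *Selp* and 1.10 to 1.67 for *Icam1* with overlap. Whether the relative change with age differed between genotypes was not tested. *Vegfa* stood at 1.96 ± 0.45 in wild-type mice and 1.43 ± 0.50 in *Socs3* cKO at 10 weeks, overlapping. At 2 weeks the relative level of *Vegfa* was also lower in *Socs3* cKO, with 1.12 ± 0.09 in wild-type mice and -0.15 ± 0.43 in *Socs3* cKO without overlap (SD, n = 4 and 4). *Sele* stood at -2.72 ± 0.26 in wild-type mice and -2.23 ± 0.17 in *Socs3* cKO at 2 weeks, so its relative level was higher in *Socs3* cKO without overlap at that age too. The log2(FC) of *Sele* itself was -0.08 at 2 weeks. The reference genes were at -1.65 (*Cdh5*), -1.01 (*Flt1*), -0.42 (*Kdr*), -0.07 (*Pecam1*) and 0.25 (*Tek*), none called. *Icam1*, *Vcam1* and *Selp* overlapped between genotypes at 2 weeks.

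**Figure D3:**
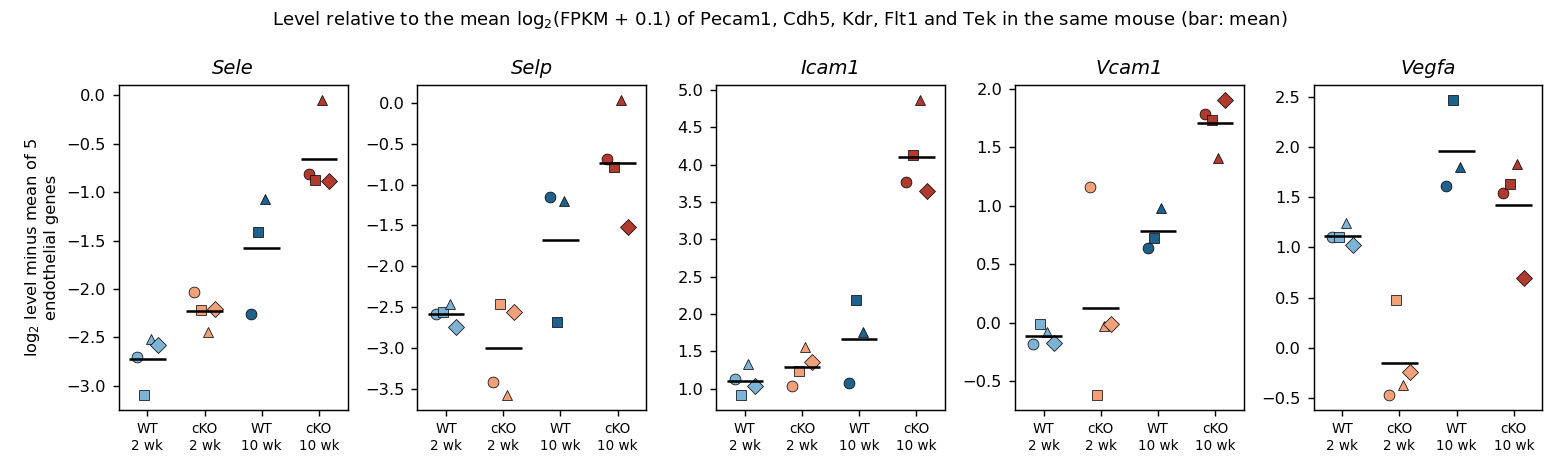
Level of each gene minus the mean log2(FPKM + 0.1) of *Pecam1*, *Cdh5*, *Kdr*, *Flt1* and *Tek* in the same mouse (vertical axis, log2 units), by genotype and age; bars are group means. *Icam1* in *Socs3* cKO at 10 weeks lay between 3.65 and 4.87, above all other mice, which reached 2.18 at most.

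Further genes of the endothelium were tested in every comparison. Of 29 other endothelial genes, all tested, 2 rose (12.5% of all genes did) and none fell at 10 weeks, with a median log2(FC) of 0.44 against 0.31 over all genes. They were *Erg*, a transcription factor that maintains endothelial identity (2.03, SE 0.47, adjusted p = 0.00933), and *S1pr1*, a receptor that stabilises vessel junctions (1.43, SE 0.21, adjusted p = 0.00147). With age in *Socs3* cKO none of the 29 was called, where 3.54% of all genes were, and with age in the wild type 13 were called, all lower, where 19.4% of all genes were called lower. In the interaction 8 of the 29 were called, all higher, where 18.5% of all genes were. At 2 weeks 3 of them fell, where 7.19% of all genes did: *Aplnr*, the apelin receptor (log2(FC) -2.84, SE 0.30), *Sox18* (-2.11, SE 0.42) and *Sox7* (-1.55, SE 0.33), the latter pair transcription factors of vessel development, and *Emcn*, a sialomucin of venous and capillary endothelium, rose (1.31, SE 0.23); *Emcn* is named after its value was seen. Of 10 genes of mural cells, which wrap small vessels, 2 rose at 10 weeks, where 12.5% of all genes did: *Rgs5*, a pericyte marker (3.07, SE 0.34), and *Notch3* (1.35, SE 0.29).

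Ligands and receptors around VEGF-A and the angiopoietins were mixed. Of 12 tested genes 4 rose at 10 weeks, where 12.5% of all genes did. They included *Nrp2*, a co-receptor for VEGF family members (1.65, SE 0.22), *Angpt1*, the activating ligand of *Tek* (1.64, SE 0.28), and *Dll4*, a Notch ligand of sprouting vessels (1.41, SE 0.27). The other one, *Angpt4* (1.39, SE 0.27), is named after its value was seen. *Angpt1* was also called at 2 weeks (1.95, SE 0.24), where *Apln*, the ligand of the apelin receptor, fell by 1.64 (SE 0.33). Hypoxia raises *Vegfa* in many cells, and of 12 other hypoxia targets 3 rose at 10 weeks, namely *Slc2a1*, *Ddit4* and *Pfkfb3*, with log2(FC) values from 1.21 to 1.81. At 2 weeks, where 7.24% of all genes rose and 7.19% fell, *Bnip3* rose (1.51, SE 0.14) and no hypoxia target passed as lower. Of the 12 targets 8 had log2(FC) values below 0, and the median of the 12 was -0.21, against -0.21 over all genes. *Car9*, named after its value was seen, was short of a call by its fold alone (log2(FC) -0.98, SE 0.21, limma adjusted p = 0.00796). A part of hypoxia in the values of *Vegfa* was not tested.

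Many partners and inducers of the adhesion molecules were called at 10 weeks, where 12.5% of all genes rose. Of 11 leukocyte counter-receptors tested 7 rose and none fell, led by *Glg1*, a ligand of E-selectin (2.60, SE 0.48), and by *Itgal* and *Itgam*, the alpha chains of the integrins LFA-1 and Mac-1 that bind ICAM-1 (2.23, SE 0.30, and 1.64, SE 0.26). The median of the 11 was 1.33. Of 18 genes of inducing cytokines and NF-kB signalling 13 rose and none fell, with a median of 1.48, among them *Tnfaip3*, an inhibitor made in response to NF-kB (5.33, SE 0.30), *Il1b* (4.88, SE 0.51) and *Rel*, an NF-kB subunit (4.01, SE 0.38). Of 10 other products of activated endothelium 7 rose, led by the neutrophil chemokines *Cxcl1* (7.93, SE 0.48) and *Cxcl2* (5.55, SE 0.45) and by *Ptgs2*, the inducible cyclooxygenase (6.10, SE 0.36). Of 7 other adhesion molecules of vessels and leukocytes tested, *Jam2*, a junction molecule, was called at 10 weeks (1.28, SE 0.25) and no other. At 2 weeks none of the 11 counter-receptors was called, while among 17 inducers tested *Rel* (2.14, SE 0.34) and *Il1a* (2.11, SE 0.27) rose and *Traf1* fell by 2.43 (SE 0.31). Of 8 other products of activated endothelium tested at that age *F3* rose (1.70, SE 0.14), and of 7 other adhesion molecules *Alcam* fell by 1.17 (SE 0.13). Among all genes 7.24% rose and 7.19% fell at that age. Many of these genes are made by several cell types.

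**Figure D4:**
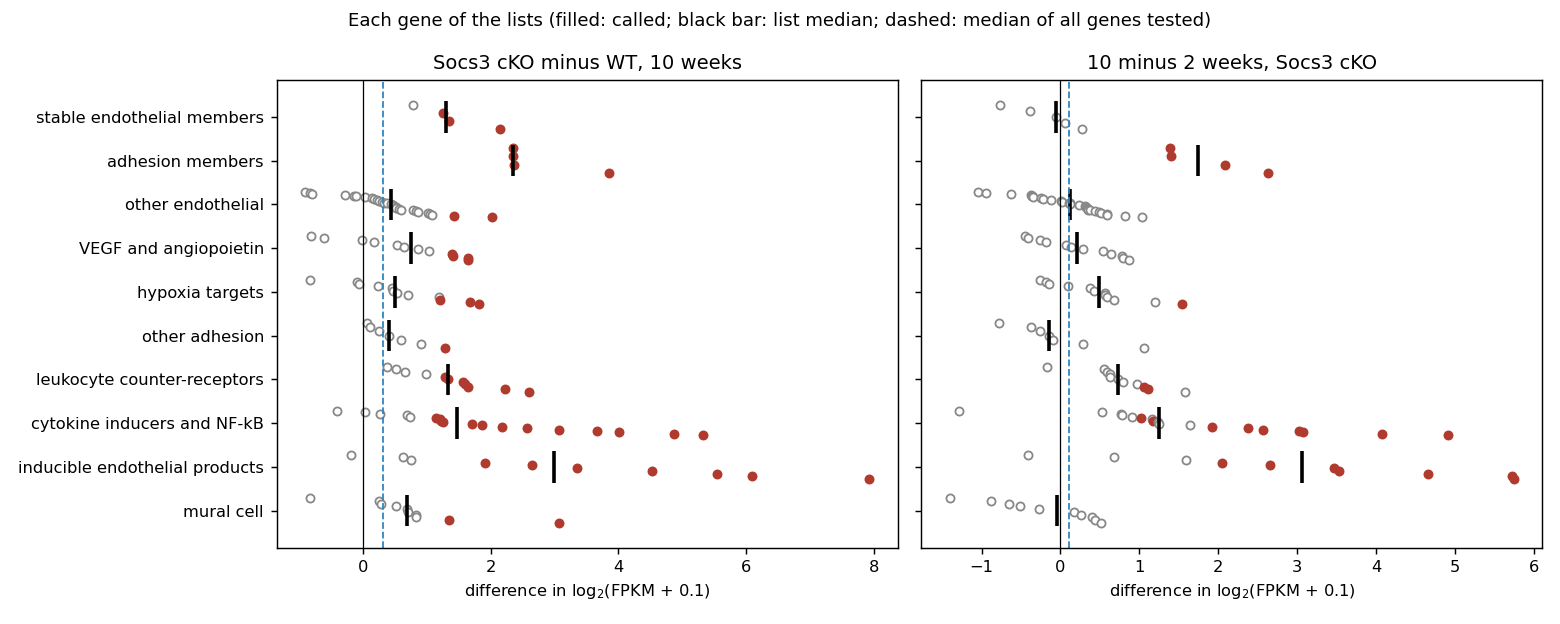
Difference in log2(FPKM + 0.1) of each gene tested (horizontal axis) for the members and for 8 lists of related genes, between genotypes at 10 weeks and between ages in *Socs3* cKO; filled points are called, black bars are list medians and the dashed line is the median of all genes. At 10 weeks the adhesion members had a median of 2.35 and the 29 other endothelial genes one of 0.44.

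Across all 15 mice, which share 4 groups, the genes most like each member were listed by Pearson's r of log2(FPKM + 0.1) among 13937 genes. For *Icam1* these were *Tnfaip3* (0.972), *A130040M12Rik* (0.968) and *Sele* (0.965), and for *Sele* they were *Icam1*, *A130040M12Rik* (0.948) and *4930523C07Rik* (0.937). *Selp* was most like *Tnfrsf1b*, a TNF receptor gene (0.942), *Gadd45g* (0.942) and *Itpkc* (0.921), and *Vcam1* most like *Kcne4* (0.935), *Layn* (0.928) and *9130008F23Rik* (0.926). No stable endothelial gene had another member among its 3. *Pecam1* was most like *Nono* (0.977), *Kera* (0.966) and *Pitrm1* (0.965), *Cdh5* like *Bmf* (0.991), *Arsi* (0.987) and *Zgpat* (0.987), and *Vegfa* like *Vezf1* (0.971), *Usp48* (0.966) and *Parp4* (0.965). For the receptors the first were *1110018G07Rik* with *Kdr* (0.983), *D430042O09Rik* with *Flt1* (0.972) and *Gnb4* with *Tek* (0.962). Between the members themselves r was 0.694 to 0.965 among the 4 adhesion molecules. Among the 5 stable endothelial genes it was 0.54 (*Flt1* with *Tek*) to 0.917 (*Kdr* with *Flt1*). Between a stable gene and an adhesion molecule r was -0.013 (*Tek* with *Selp*) to 0.622 (*Flt1* with *Selp*). These values describe a shared pattern over groups and were not tested.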

How the data were processed

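Ear RNA of 15 mice was sequenced by the authors as single reads of 50 bases on an Illumina HiSeq system (TruSeq RNA kit, no strand stated). The submitters' processing notes list TopHat2 2.1.0, Cufflinks and mm9, and the role of Cufflinks is not given in the sources used here. The authors deposited FPKM per gene and library, normalized for length and mapped reads, without read counts, so the edgeR test named in the study's methods was replaced by limma. Groups and replicate numbers came from the labels. The labels number the libraries of a group as replicates, which the study counts as mice, and p-values measure the spread between them. The study states more wild-type mice at both ages than the 7 libraries used, and the others were not analysed here.

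limma 3.58.1 (R 4.3.3, trended prior) was run on log2(FPKM + 0.1) for genes with FPKM of at least 1 in at least 3 mice of the fit. Each age had its own fit, and the interaction and the age comparisons used all 4 groups. Members called in a fit had an adjusted p below 0.01 and |log2(FC)| of at least 1, the interaction only the former. Exact permutation tests were 2-sided. Tested on simulated data, the step recovered 98 of 100 planted changes of 1.5 (log2) at 2 weeks and 41 of 100 at 10 weeks. For changes of 2.5 it recovered 99 and 77 of 100. The simulation used wild-type scatter for either genotype. At 2 weeks every member varied more among *Socs3* cKO mice. The SD of the log2 values was 0.070 in wild-type mice and 0.943 in *Socs3* cKO for *Cdh5*, and 0.081 and 0.848 for *Vegfa*. The 2-week shares therefore do not carry over to such genes, and *Cdh5*, at -1.65, was not called. Positions came from a GENCODE annotation of mm9 (97.3% of genes matched by symbol) and length and GC content were available for 92.1%. Other calculations used Python 3.11.15, numpy 2.4.6, scipy 1.17.1, pandas 2.3.3 and matplotlib 3.10.9.

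The 10 genes and all gene lists were chosen with earlier results of these data known. Named beside the members are, per list and genotype comparison, up to 3 called genes with the largest |log2(FC)|, the 3 genes most like each member by Pearson's r, and *Socs3*. Further lists gave, at 10 weeks, 2 higher of 6 lymphatic genes tested, 0 of 3 selectin ligand enzymes, 0 of 3 neutrophil, 1 of 5 T cell, 2 of 5 adipocyte and 0 of 5 skeletal muscle genes, with none lower, and 3 of 4 red cell genes lower after 4 of 4 higher at 2 weeks. Among all genes 12.5% were called higher and 2.43% lower at 10 weeks, and 7.24% higher at 2 weeks. Alternatives were pseudocounts of 1 and 0.01, no and a stricter expression filter, median-of-ratios scaling, quantile normalization, a constant prior variance, the replicate number as a block, removal of length and GC trends, other groupings of the fit and leaving out each mouse.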

Additional observations from a re-analysis of the deposited data

Results flagged for a closer look

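The genotype difference differed between ages, by the test of the interaction itself, for 9 of the 10 genes: on the log2 scale by 4.23 for *Icam1*, 3.36 for *Selp*, 2.9 for *Cdh5*, 2.73 for *Vegfa*, 2.68 for *Vcam1*, 2.58 for *Flt1*, 2.56 for *Kdr*, 2.42 for *Sele* and 1.42 for *Pecam1*. The adjusted p from limma was between 3.3e-05 and 0.00212. The background share of genes called in this test was 25.6%, and library batch and condition cannot be told apart.

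For *Vcam1* in the wild type at 2 weeks, replicate 2 (7.57 FPKM) lay apart from the other 3 mice (6.15 to 6.32 FPKM), with a gap of 0.87 of the group's range against Dixon's 95% critical value of 0.829. This was 1 of 30 groups of 4 mice checked, and chance alone marks about 1 in 20.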

How the results depend on the processing

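No value of the 10 genes that was called changed sign under any alternative, but several calls were lost or gained. At 2 weeks the count of members called was 1, became 2 (*Cdh5* joining *Vegfa*) with a pseudocount of 1, median-of-ratios scaling, quantile normalization, removal of length and GC trends or all 4 groups in one fit, and ranged from 0 to 3 when each mouse was left out (0 without any 1 wild-type mouse or *Socs3* cKO replicate 3 or 4, 2 without *Socs3* cKO replicate 1, 3 without replicate 2). With age in *Socs3* cKO the count was 4, became 2 (*Icam1* and *Vcam1*) with a pseudocount of 0.01 or no expression filter and 1 (*Icam1*) when only the 2 groups compared were fitted, an alternative added after seeing the data, and ranged from 2 to 5 when each mouse was left out (2 without any 1 wild-type mouse of 2 weeks, *Socs3* cKO replicate 1, 3 or 4 of 2 weeks or replicate 1, 2 or 3 of 10 weeks). The other counts ranged, when each mouse was left out, from 5 to 7 between genotypes at 10 weeks (without replicate 3 of the wild type, the lowest), 9 to 9 for the interaction and 6 to 9 with age in the wild type (without replicate 1 or 3 of the wild type at 10 weeks, the lowest). Replicate numbers did not pair the mice (correlation of same-numbered deviations -0.041 to 0.135 at 2 weeks and -0.209 to 0.068 at 10 weeks); with the replicate block the members called were 0 at 2 weeks, 6 at 10 weeks and 2 with age in *Socs3* cKO. Over all genes, 1951 were called at 2 weeks, against 751 with the block and 3300 with all 4 groups in one fit, and 493 with age in *Socs3* cKO against 146 with 2 groups; leaving out 1 mouse gave 859 to 3348 and 300 to 700, and 745 to 2665 against 1957 at 10 weeks. The share of called genes that were higher at 10 weeks was 83.7%, against 62.9% with median-of-ratios scaling, 54.3% with quantile normalization, 58.2% without length and GC trends and 65.7% without a filter; for the interaction it was 72.4%, against 52%, 45.4%, 43.3% and 59.9%. At 2 weeks it was 50.2%, against 35.2% with all 4 groups in one fit; with age in the wild type it was 24.2%, against 47.1%, 48.8%, 52.4% and 40.4%. The causes were not tested. By the estimated depth *Sele* and *Selp* rest on few reads in the wild type, and *Flt1*, lower still at 10 weeks, was not tested there.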
